A study of Homo sapiens with 9 samples.

Results

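The early part of the complement cascade was followed in HepG2 cells, an established human liver tumour line, after exposure to a thyroid receptor ligand. The genes described are 10: MBL2, MASP1, MASP2, C1R, C1S, C2, C3, CFB, C4BPA and C4BPB. They were chosen from their place in the pathway, by someone who already knew how GC-1 and T3 differed from vehicle on these same arrays, so their calls describe the genes and do not serve as independent evidence about the pathway. All probe sets whose array annotation names exactly 1 of these symbols were taken, which gave 15 probe sets of the 22215 that are not array controls, and 10 of the 11963 genes named in this way. MASP1 and MASP2 had 3 probe sets each, CFB had 2, and the other 7 genes had 1 each.

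The 9 expression arrays fell into 3 groups of 3. Cells of the first group received GC-1 at 10 nM, cells of the second received the hormone triiodothyronine (T3) at 10 nM, and cells of the third received vehicle. In all groups the medium held serum from which thyroid hormone had been removed, and RNA was taken after 24 h. GC-1, or sobetirome, is a thyroid receptor ligand with preference for the beta receptor. Compared with T3 it has methyl groups for the inner iodines, isopropyl for the outer iodine, a methylene bridge for the ether oxygen and an oxyacetic acid side chain.

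Complement is a set of plasma proteins, made largely by hepatocytes, that marks microbes and damaged cells for removal. It starts when recognition proteins bind a surface and switch on attached serine proteases, C1r and C1s in the classical route and the MASP proteases in the lectin route. These proteases cut C4 and C2, and the fragments join into an enzyme, the C3 convertase, that cuts C3. Factor B forms the convertase of the alternative route on C3 fragments, and C4b-binding protein takes the classical convertase apart. In liver cells many of these genes are also known to answer to interleukin-6, interleukin-1 and interferon-gamma.

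The values were deposited log2 signals made with RMA (robust multi-array average), which corrects background, normalizes arrays and summarizes the probes of a set. Array medians lay between 7.02 and 7.06. The interquartile range was 2.83 to 2.85 on GC-1 arrays, 2.88 to 2.99 on T3 arrays and 2.87 to 2.88 on vehicle arrays, and it was widest on T3 replicates 1 and 2 (2.99 and 2.97). The 9 measured hepatocyte markers of 10 listed lay between 11.6 and 14.5 on every array. All 9 averaged above vehicle with both ligands, as the members' medians did, with 1 called higher with GC-1 and 2 with T3, 7 of 9 without overlap with vehicle under each ligand, and medians of 0.08 with GC-1 and 0.12 with T3. The part of this in the members' values was not tested. PTPRC, the common leukocyte antigen, averaged 5.04 in GC-1, 4.89 in T3 and 4.88 in vehicle, and CDH5, an endothelial cadherin, 5.00, 5.05 and 4.83 in the same order of groups. Over the 18 measured markers of other cells among 19 listed, the log2 of the summed signals was 13.2 to 13.3 in GC-1, 13.1 to 13.4 in T3 and 13.2 to 13.3 in vehicle. Of these, only KRT19 passed the test, 0.28 lower with GC-1 and 0.25 lower with T3 on the log2 scale, and LYZ, ACTA2 and COL1A1 were clearly measured in all groups. Of 8 genes listed as a check of the hormone response, 6 were called higher with each ligand. The receptor genes THRA and THRB were not called (-0.06 and -0.35 with GC-1, -0.07 and -0.14 with T3). At an unadjusted p under 0.05 (limma) the list had 7 genes with GC-1, 6 of them higher, and 6 with T3, all higher. Over all 11963 genes, 2031 with GC-1 and 2682 with T3 were under that p. With GC-1, 1 of the 8 lay wholly below vehicle, as did 2074 of all genes. The known targets CPT1A and G6PC1 had log2 differences of 1.08 and 1.96 with GC-1 and of 1.31 and 2.43 with T3.

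A probe set was counted as called when limma gave it an adjusted p under 0.05 over all 22215 probe sets. With GC-1, 2 of the 15 member probe sets were called higher, those of MBL2 and C1S, and 0 lower. Over all probe sets, 1.81% were called higher with GC-1, and 219 of 22215 lower. With T3, 8 of the 15 were called higher and 0 lower. The 8 were 1 from each of MBL2, MASP1, MASP2, C1S, C2, C3, CFB and C4BPB. Over all probe sets, 4.00% were called higher with T3, and 334 of 22215 lower. The called increases were 1.26-fold and 1.62-fold with GC-1 and 1.16-fold to 1.49-fold with T3. When each gene was counted once, through its brightest probe set, 2 of 10 genes were called higher with GC-1, where 2.10% of all genes were. The same count with T3 was 7 of 10, where 4.51% of all genes were. The median log2 difference of the 15 probe sets was 0.13 with GC-1 and 0.22 with T3, and that of all probe sets was -0.004 with GC-1 and -0.015 with T3. Since earlier results guided the choice of genes, nothing is read from how these counts stand to the shares of all probe sets. GC-1 and T3 were compared with the same 3 vehicle arrays, so their lists of calls are not independent. In this bulk RNA, a change in the cells that make a transcript and a change in RNA per cell cannot be told apart.

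**Figure D1:**
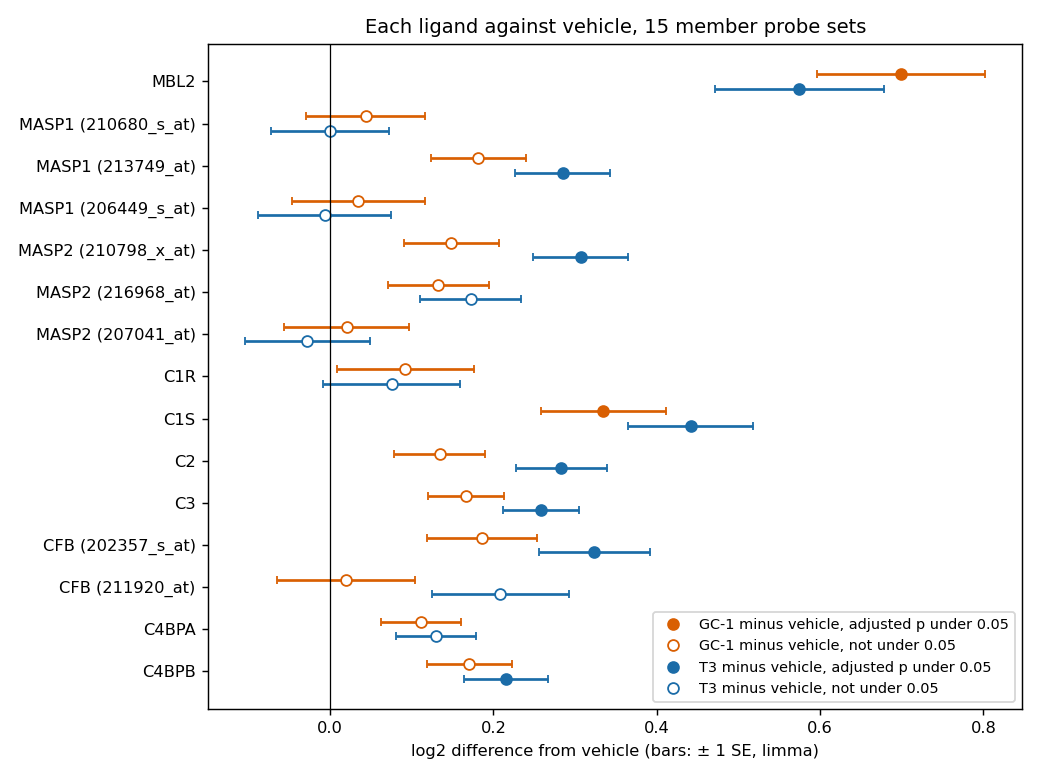
Log2 difference from vehicle (x axis) of each of the 15 member probe sets (y axis), GC-1 above T3, with bars of 1 standard error from limma and filled circles for adjusted p under 0.05. MBL2 stands farthest right with both ligands, at 0.70 with GC-1 and 0.57 with T3, and the probe sets of MASP1 and MASP2 disagree among themselves.

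MBL2 had the largest change of the group. It encodes mannose-binding lectin, the recognition protein of the lectin route. Its log2 signal was 9.45, 9.42 and 9.43 on the GC-1 arrays, 9.44, 9.43 and 9.06 on the T3 arrays, and 8.74, 8.89 and 8.58 on the vehicle arrays. All 6 ligand arrays were above all 3 vehicle arrays, and T3 replicate 3 was the lowest of the 6. MBL2 rose 1.62-fold with GC-1 (log2 0.70 ± 0.10 SE, n = 3 per group, adjusted p = 0.00386, limma). With T3 it rose 1.49-fold (log2 0.57 ± 0.10, adjusted p = 0.00757, limma). The GC-1 call held under all 17 other settings tried, with adjusted p between 0.000222 and 0.0231. The T3 call was lost when the array interquartile range was a covariate (log2 0.30, adjusted p = 0.0833) and when T3 replicates 1 and 2 were left out (log2 0.32, adjusted p = 0.0949).

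The promoter window at the gene start of MBL2 is shown because this gene had the largest change. Those of CFB and MASP2 are shown as examples of a convertase gene and a protease gene. C2, MASP1 and C1R could have served equally. Each is 300 bases from RefSeq (GRCh38.p14), 250 before to 50 after the annotated start, written 5′ to 3′ on the gene's strand. A window was given for 8 of the 10 genes, and none was used for C1S and C3. Capitals mark matches, on either strand, to the receptor hexamer AGGTCA, an interferon element core GAAANNGAA, a STAT core TTCNNNGAA, a C/EBP core TTGCNNAA and the HNF1 core GTTAAT.
MBL2, minus strand, chr10:52772735-52773034: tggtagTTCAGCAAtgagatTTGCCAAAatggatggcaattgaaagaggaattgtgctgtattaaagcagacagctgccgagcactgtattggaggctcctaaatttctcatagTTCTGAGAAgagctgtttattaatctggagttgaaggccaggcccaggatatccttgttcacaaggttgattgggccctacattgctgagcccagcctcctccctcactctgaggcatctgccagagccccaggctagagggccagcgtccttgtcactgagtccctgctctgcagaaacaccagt
CFB, plus strand, chr6:31945845-31946144: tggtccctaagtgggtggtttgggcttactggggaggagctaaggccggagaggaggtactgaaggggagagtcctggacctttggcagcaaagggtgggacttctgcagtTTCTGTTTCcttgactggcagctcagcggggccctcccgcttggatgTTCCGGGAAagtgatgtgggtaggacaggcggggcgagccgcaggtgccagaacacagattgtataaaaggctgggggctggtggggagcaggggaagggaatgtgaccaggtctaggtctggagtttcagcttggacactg
MASP2, minus strand, chr1:11047190-11047489: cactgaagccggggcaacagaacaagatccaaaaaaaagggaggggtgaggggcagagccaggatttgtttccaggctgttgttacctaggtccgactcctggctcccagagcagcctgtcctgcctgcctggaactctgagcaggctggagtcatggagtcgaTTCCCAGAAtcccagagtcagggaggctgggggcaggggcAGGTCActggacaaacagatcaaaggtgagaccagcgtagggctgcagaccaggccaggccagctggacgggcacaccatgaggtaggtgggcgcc
The MBL2 window shown held 1 STAT core and 2 C/EBP cores, the CFB window 1 interferon core and 1 STAT core, and the MASP2 window 1 receptor hexamer and 1 STAT core. No marked match overlapped another in these windows. The gene-start windows of MASP1, C1R, C2, C4BPA and C4BPB, not shown, held no STAT core. The windows shown are thus the only gene-start windows with a STAT core, and are not typical of the members in this. Those of C2 and C4BPB held no match to any of the motifs. RefSeq gives MBL2 a second window, not shown, that held 2 HNF1 cores and no match to the other motifs. A second C1R window held 1 STAT core, 1 C/EBP core and 1 HNF1 core, and a second C2 window held no match. C4BPB also has windows 2 and 3, which overlap. Each held 1 receptor hexamer, 1 interferon core and 1 STAT core, at the same sites. Among all 35116 windows of this length, 13.8% held the receptor hexamer, 8.11% the interferon core, 7.66% the STAT core, 10.5% the C/EBP core and 6.88% the HNF1 core. Of the 13 windows of the members, some of which overlap, 4 held the receptor hexamer and 3 the interferon core. The STAT core was in 6, the C/EBP core in 3 and the HNF1 core in 3. The sites shared by windows 2 and 3 of C4BPB count for each window. A match is a run of letters and was not tested as a binding site.

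MASP1 and MASP2 encode the serine proteases that travel with mannose-binding lectin, and MASP2 cuts C4 and C2. Their probe sets did not move alike. Of the 3 MASP1 probe sets, 213749_at read 6.55, 6.55 and 6.49 with GC-1, 6.54, 6.66 and 6.70 with T3, and 6.31, 6.43 and 6.31 with vehicle. All ligand arrays were above all vehicle arrays there. That probe set had a log2 difference of 0.18 ± 0.06 with GC-1 (adjusted p = 0.142) and rose 1.22-fold with T3 (log2 0.28 ± 0.06, adjusted p = 0.0153). The other MASP1 probe sets, 210680_s_at and 206449_s_at, had log2 differences of 0.04 and 0.03 with GC-1 and of 0.00 and -0.01 with T3, and their groups overlapped. The 3 MASP1 probe sets had means over the 9 arrays of 5.44 to 6.62, under the median probe set at 7.04. The T3 call on 213749_at was lost without vehicle replicate 1 (log2 0.27, adjusted p = 0.0713) and without vehicle replicate 3 (log2 0.26, adjusted p = 0.0724).

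Of the 3 MASP2 probe sets, 210798_x_at read 7.39, 7.52 and 7.47 with GC-1, 7.63, 7.70 and 7.53 with T3, and 7.27, 7.33 and 7.34 with vehicle. The 3 groups did not overlap, with T3 highest and vehicle lowest. It had a log2 difference of 0.15 ± 0.06 with GC-1 (adjusted p = 0.234) and rose 1.24-fold with T3 (log2 0.31 ± 0.06, adjusted p = 0.0102). Probe sets with this ending can bind several transcripts. The second, 216968_at, had log2 differences of 0.13 with GC-1 (adjusted p = 0.329) and 0.17 with T3 (adjusted p = 0.141), and the third, 207041_at, of 0.02 and -0.03. When the probe sets of a gene were averaged, MASP2 stood at 0.10 with GC-1 (adjusted p = 0.321) and 0.15 with T3 (adjusted p = 0.0901), and MASP1 at 0.09 with each (adjusted p = 0.550 with GC-1 and 0.430 with T3), so neither gene was called. Which transcripts of these genes each probe set reads was not analysed here. The T3 call on 210798_x_at was also lost without vehicle replicate 1 (adjusted p = 0.0528), with the interquartile range as a covariate (adjusted p = 0.0899) and without T3 replicates 1 and 2 (adjusted p = 0.0911).

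C1S and C1R, which lie next to each other on chromosome 12, encode the serine proteases of the C1 complex. C1r activates C1s, and C1s then cuts C4 and C2. C1S read 7.63, 7.53 and 7.30 on the GC-1 arrays, 7.64, 7.60 and 7.53 on the T3 arrays, and 7.11, 7.15 and 7.19 on the vehicle arrays. All ligand arrays lay above the vehicle arrays, and GC-1 replicate 3 was the lowest of them. C1S rose 1.26-fold with GC-1 (log2 0.33 ± 0.08, adjusted p = 0.0438) and 1.36-fold with T3 (log2 0.44 ± 0.08, adjusted p = 0.00627).

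C1R was not called with either ligand. It read 6.19, 6.24 and 6.29 with GC-1, 6.14, 6.24 and 6.29 with T3, and 6.35, 5.97 and 6.12 with vehicle. The groups overlapped, and the vehicle arrays spread more (SD 0.19) than the GC-1 arrays (SD 0.05) or the T3 arrays (SD 0.07). The log2 difference was 0.09 with GC-1 (95% interval -0.09 to 0.28, adjusted p = 0.662) and 0.08 with T3 (interval -0.11 to 0.26, adjusted p = 0.661). The C1R probe set lay under the median level of all probe sets, at a mean of 6.20 over the 9 arrays.

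The GC-1 call on C1S held under 6 of 17 other settings. It was lost without any one of the vehicle arrays (log2 0.32, 0.33 and 0.36, adjusted p = 0.156, 0.140 and 0.108 without vehicle replicate 1, 2 and 3) and when the first or the second GC-1 array was left out (log2 0.26 with adjusted p = 0.159, and 0.31 with adjusted p = 0.164). It was also lost without T3 replicate 1 or 2, which enter the shared spread (0.33 both times, adjusted p = 0.0562 and 0.0598). The T3 call on C1S held under 15 of 17, lost with the interquartile range as a covariate (0.41, adjusted p = 0.0522) and without T3 replicates 1 and 2 (0.38, adjusted p = 0.0708).

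C3 is the protein on which all routes converge, and C2 and CFB encode the related proteases that form the C3 convertases. A probe set of each rose with T3. C3 read 13.12, 13.13 and 13.07 with GC-1, 13.21, 13.21 and 13.18 with T3, and 12.92, 12.98 and 12.92 with vehicle, with every T3 array above every GC-1 array and every GC-1 array above every vehicle array. C3 had a log2 difference of 0.17 ± 0.05 with GC-1 (adjusted p = 0.0925) and rose 1.20-fold with T3 (log2 0.26 ± 0.05, adjusted p = 0.00735). The highest signal on any array was 14.5, so C3 lay near the upper end of the scale.

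C2 read 9.79, 9.82 and 9.79 with GC-1, 9.95, 9.88 and 10.02 with T3, and 9.63, 9.74 and 9.62 with vehicle. The groups again did not overlap, in the order T3, GC-1, vehicle. C2 stood 0.13 ± 0.06 above vehicle with GC-1 (adjusted p = 0.264) and rose 1.22-fold with T3 (log2 0.28 ± 0.06, adjusted p = 0.0127).

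CFB lies close to C2 on chromosome 6, with ZBTB12 as the gene between them. Its brighter probe set, 202357_s_at, read 10.97, 10.86 and 10.80 with GC-1, 11.00, 10.91 and 11.13 with T3, and 10.69, 10.74 and 10.64 with vehicle. All ligand arrays were above the vehicle arrays, while GC-1 and T3 arrays overlapped. It differed by 0.19 ± 0.07 with GC-1 (adjusted p = 0.200) and rose 1.25-fold with T3 (log2 0.32 ± 0.07, adjusted p = 0.0177). The dimmer probe set of CFB, 211920_at, had log2 differences of 0.02 with GC-1 (adjusted p = 0.947) and 0.21 with T3 (adjusted p = 0.184). The mean of both probe sets stood at 0.10 with GC-1 (adjusted p = 0.534) and 0.27 with T3 (adjusted p = 0.0542), so CFB was not called on that mean.

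The T3 calls on C2 and on the brighter CFB probe set were lost without vehicle replicate 1 (log2 0.27 and 0.32, adjusted p = 0.0612 and 0.0650) and without vehicle replicate 3 (0.26 and 0.30, adjusted p = 0.0633 and 0.0810). With GC-1, C3 was called under 4 of 17 other settings, among them the fit without T3 replicate 3 (0.17, adjusted p = 0.0496), and CFB (202357_s_at) under 1. With T3, C3 was called under 16 of 17, all but the fit without T3 replicates 1 and 2 (0.24, adjusted p = 0.0510).

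**Figure D2:**
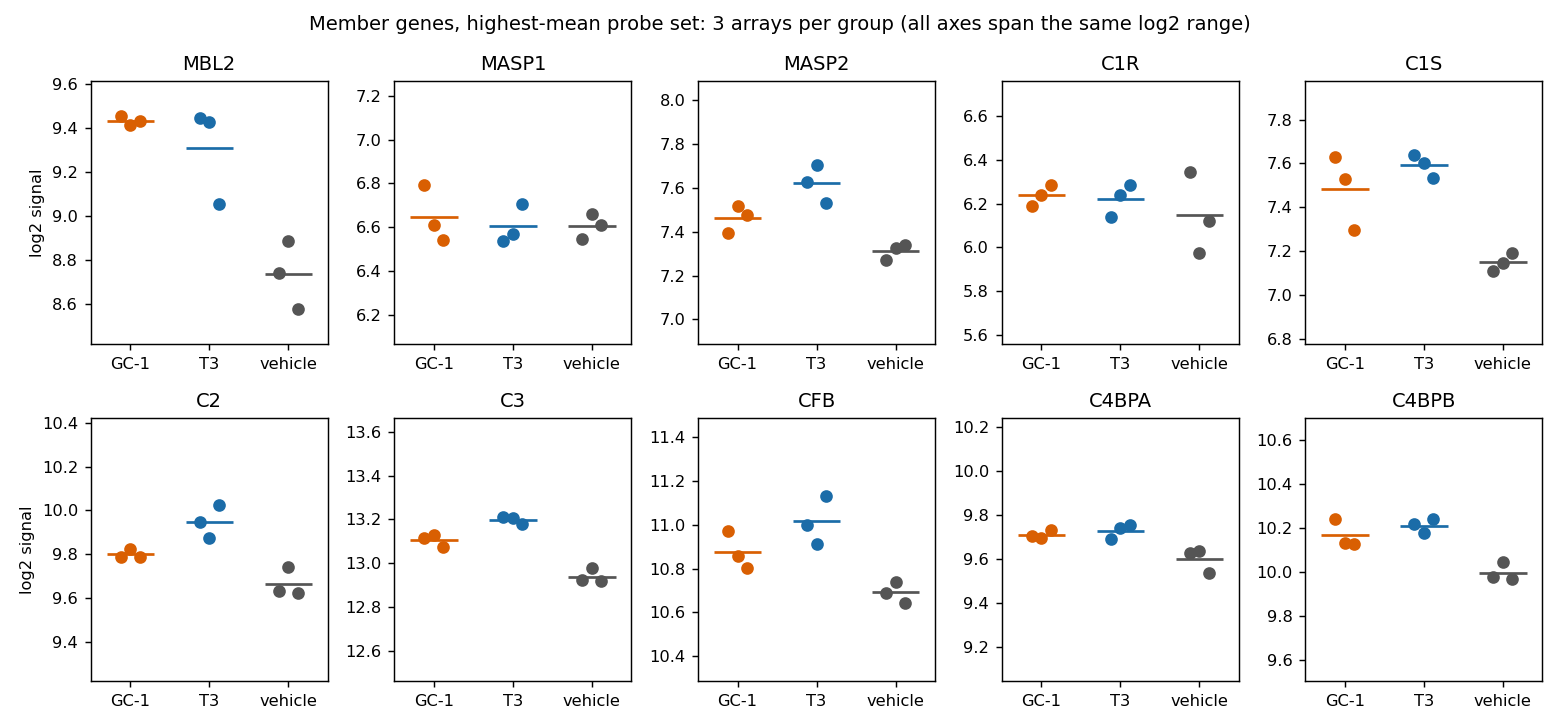
Log2 signal (y axes, each spanning the same range) of the highest-mean probe set of each of the 10 genes, with a point for each array and a line at the mean of GC-1, T3 and vehicle (3 arrays each). In C2, C3 and MASP2 the groups do not overlap and T3 is highest, in MBL2 T3 replicate 3 lies apart from the other ligand arrays, and in MASP1 and C1R the groups overlap.

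C4BPA and C4BPB, neighbours on chromosome 1, encode the chains of C4b-binding protein. The alpha chains bind C4b and help factor I destroy it, and the beta chain binds protein S. C4BPB read 10.24, 10.13 and 10.13 with GC-1, 10.22, 10.18 and 10.24 with T3, and 9.98, 10.04 and 9.97 with vehicle. C4BPA read 9.71, 9.70 and 9.73 with GC-1, 9.69, 9.74 and 9.75 with T3, and 9.63, 9.64 and 9.54 with vehicle. In both genes all ligand arrays were above the vehicle arrays. C4BPB differed by 0.17 ± 0.05 with GC-1 (adjusted p = 0.123) and rose 1.16-fold with T3 (log2 0.22 ± 0.05, adjusted p = 0.0355). C4BPA had differences of 0.11 ± 0.05 with GC-1 (adjusted p = 0.296) and 0.13 ± 0.05 with T3 (adjusted p = 0.159).

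The T3 call on C4BPB held under 5 of 17 other settings. It was lost without any of the vehicle arrays (log2 0.21, 0.24 and 0.20 without replicate 1, 2 and 3, adjusted p = 0.123, 0.0607 and 0.129), without any of the T3 arrays (0.21, 0.23 and 0.20, adjusted p = 0.0956, 0.0511 and 0.0594), and without GC-1 replicate 2 or 3 (0.22 both times, adjusted p = 0.0578 and 0.0541). C4BPA was called under 0 of 17 settings with either ligand, at an unadjusted p of 0.0439 with GC-1 and 0.0228 with T3 in limma.

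Taken over the 15 probe sets, all GC-1 arrays lay above all vehicle arrays in 9, where 10.8% of all probe sets did so. All T3 arrays lay above all vehicle arrays in 10, where 12.5% of all probe sets did. Neither ligand placed a member probe set wholly below vehicle, where 3475 of all 22215 probe sets lay so with GC-1 and 2759 with T3.

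**Figure D3:**
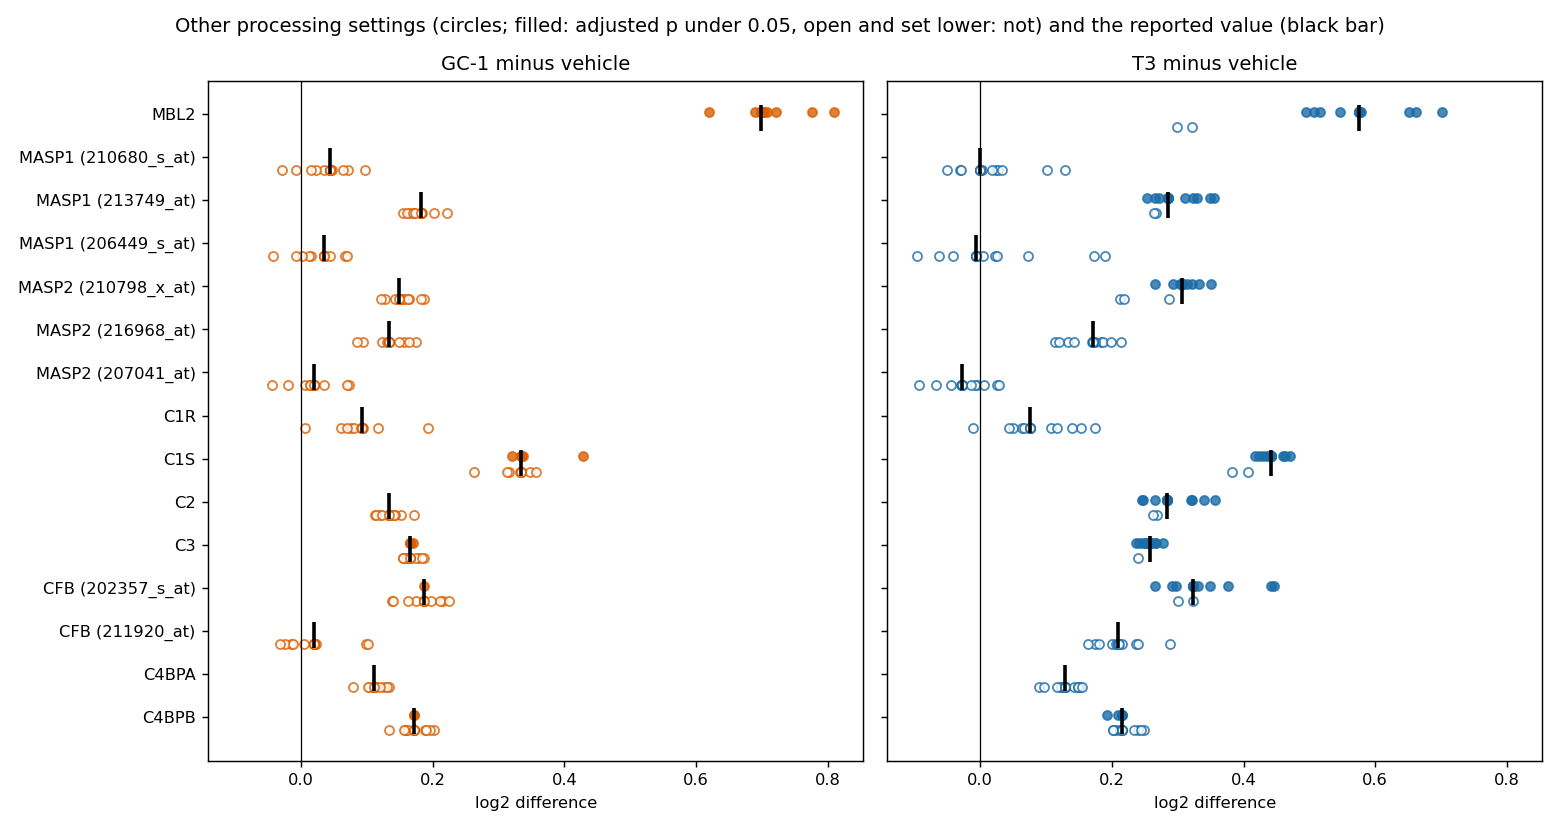
Log2 difference from vehicle (x axes) of each member probe set (y axis) under 16 or 17 other processing settings, GC-1 on the left and T3 on the right, with the reported value as a black bar. Filled circles had an adjusted p under 0.05 and open circles, set lower, did not. The GC-1 circles of MBL2 are all filled, between 0.62 and 0.81.

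GC-1 and T3 were then set against each other, at the matched dose and time, as the only pair of compounds. Under limma 0 of the 15 member probe sets were called, and 0% of all probe sets were. At an unadjusted p under 0.05 there were 3 of 15, and 3122 of all 22215. With a trended, robust prior in eBayes the count was also 0 of 15, and 22 over all probe sets. The 3 were C2 (GC-1 minus T3 -0.15, 95% interval -0.27 to -0.03, unadjusted p = 0.0212, adjusted p = 0.286), the MASP2 probe set 210798_x_at (-0.16, interval -0.29 to -0.03, unadjusted p = 0.0194, adjusted p = 0.279) and the CFB probe set 211920_at (-0.19, interval -0.37 to -0.004, unadjusted p = 0.0460, adjusted p = 0.346), all lower with GC-1. All GC-1 arrays lay below all T3 arrays in 4 of the 15, those 3 and C3, where 10.1% of all probe sets did so. In none did all GC-1 arrays lie above all T3 arrays, where 1756 of all 22215 probe sets did so.

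The 95% intervals of the 15 differences ran from 0.771-fold to 1.28-fold. MBL2 had the highest upper bound, with a log2 difference of 0.12 (interval -0.10 to 0.35, adjusted p = 0.606). Without T3 replicate 3 it was -0.002 (adjusted p = 0.991), so the estimate for MBL2 rests on that array. The difference in C3 was -0.09 (interval -0.19 to 0.01, adjusted p = 0.397), and those in C1S, C4BPB and C4BPA were -0.11, -0.05 and -0.02 with intervals that held 0. The missing calls do not show that the compounds act alike on these genes.

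**Figure D4:**
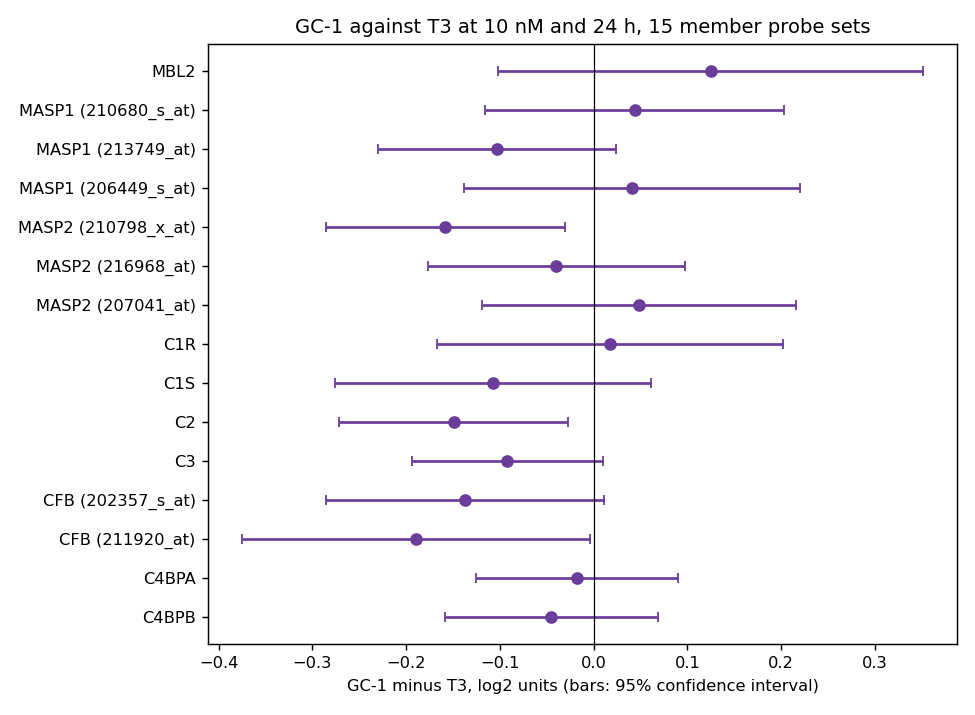
GC-1 minus T3 in log2 units (x axis) for each of the 15 member probe sets (y axis), with 95% confidence intervals from limma. Only the intervals of C2, MASP2 (210798_x_at) and CFB (211920_at) leave out 0, and all intervals lie between -0.37 and 0.35.

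The rest of the complement system was counted with 1 probe set per gene. The recognition subunits and ficolins, 8 measured of 9, had 0 genes called with either ligand, with medians of -0.01 with GC-1 and -0.06 with T3. These genes encode the proteins that bind surfaces first, such as C1q of the classical route. At an unadjusted p under 0.05 (limma) the list had 3 genes with GC-1, 2 of them higher, and 0 with T3. Over all 11963 genes, 2031 with GC-1 and 2682 with T3 had an unadjusted p under 0.05. Of the other convertase parts, CFD and CFP were measured and neither was called (also 0 at an unadjusted p under 0.05). The 2 probe sets that name C4A and C4B together with a further gene were not assigned, so C4 was not analysed here.

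Among the soluble and membrane regulators, 0 of 10 measured genes of 15 listed were called with GC-1 (1 at an unadjusted p under 0.05, limma) and 2 were called higher with T3. These were SERPING1, the inhibitor that removes C1r and C1s from their complex (0.18 with GC-1, adjusted p = 0.296, and 0.40 ± 0.08 with T3, adjusted p = 0.0130), and CPN2, the regulatory subunit of the carboxypeptidase that trims anaphylatoxins (0.13 with GC-1, adjusted p = 0.349, and 0.30 with T3, adjusted p = 0.0185). The T3 count of 2 was 1 when vehicle replicate 1 or 2 or T3 replicate 2 was left out. CFI, the protease that works with C4b-binding protein, stood at 0.002 with GC-1 and -0.02 with T3. Of 8 complement receptors 0 were called with either ligand (0 and 3 at an unadjusted p under 0.05 with GC-1 and T3, 1 of the 3 higher).

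The terminal components and their regulators, 9 measured of 10, had 3 called higher with GC-1 and 5 with T3, and none lower, with medians of 0.11 and 0.20 (all genes -0.005 and -0.017). C5, the component that the convertases cut after C3, rose by 0.25 with GC-1 (adjusted p = 0.0259) and by 0.32 with T3 (adjusted p = 0.00346). C8A and C8B, chains of a pore component, rose by 0.75 and 1.04 with GC-1 and by 0.86 and 1.21 with T3, more than any member did with the same ligand. CD59, which blocks the pore, and C8G, the third chain of C8, rose by 0.20 and 0.23 with T3 (adjusted p = 0.0445 and 0.0361). The T3 count of 5 was 3 when vehicle replicate 1 or 3, T3 replicate 1 or 2, or GC-1 replicate 2 was left out. The GC-1 count of 3 was 2 whenever 1 vehicle or 1 GC-1 array was left out, and with the replicate block.

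**Figure D5:**
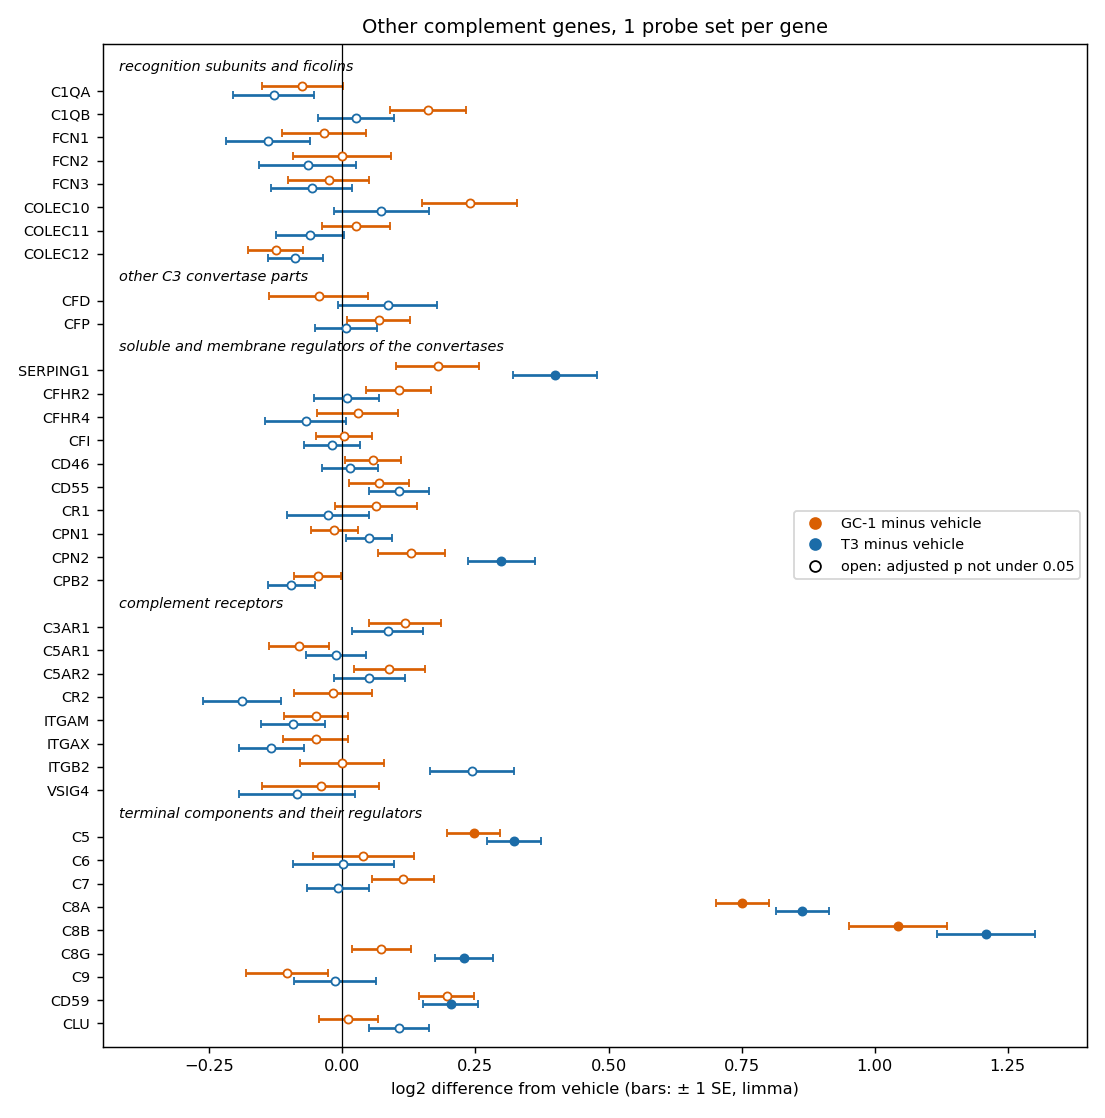
Log2 difference from vehicle (x axis) of other complement genes (y axis), GC-1 above T3, grouped by role, with bars of 1 standard error and filled circles for adjusted p under 0.05. C8A and C8B stand farthest right, up to 1.04 with GC-1 and 1.21 with T3, and the recognition subunits and receptors lie around 0 with no filled circle.

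Lists of genes known to respond to the cytokines that act on complement in liver were set beside the members. Of 25 measured interferon-induced genes among 27 listed, 4 were called higher with GC-1 and 2 with T3, with medians of 0.02 and -0.001. The 2 called with both were ISG20 (0.59 with GC-1, 0.75 with T3) and GBP2 (0.42 and 0.51 in the same order), and IRF9 (0.21) and CXCL10 (0.25) were called with GC-1. The GC-1 count was 2 whenever 1 vehicle or 1 GC-1 array was left out. Of 21 measured genes of the interleukin-6 and NF-kB list of 23, 8 were called higher and 1 lower with GC-1. With T3, 8 were called higher and 0 lower. The medians were 0.12 with GC-1 and 0.19 with T3. Of all 11963 genes, 251 were called higher and 139 lower with GC-1, and 539 and 205 with T3, with medians of -0.005 and -0.017. FGB is on this list and also among the hepatocyte markers. The 1 gene of the list that fell was CCL20, a chemokine, by 0.22 with GC-1 (adjusted p = 0.0450, limma). It was named after its value was seen, and its call was lost in 8 of 9 fits that left out 1 array (all but T3 replicate 3), with the replicate block and with the interquartile range as a covariate. CEBPB, a transcription factor of the acute phase, rose by 0.72 with GC-1 and 0.81 with T3, and the plasma proteins FGA, FGB and HP rose by 0.60 to 0.75 with GC-1 and 0.69 to 0.86 with T3. Of 9 measured liver transcription factors among 15 listed, 1 was called, CEBPA, at 0.36 with GC-1 and 0.48 with T3. The T3 count was 2 without T3 replicate 3. Whether any of these genes bears on the members was not tested.

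Over the 9 arrays, the 5 genes whose signal followed that of C3 most closely were CPQ, ITIH1, CES1, ERO1A and PCK2, with Pearson's r of 0.986 to 0.994. All 9 arrays enter both sides and the ligand groups differ from vehicle in each, so these values describe the arrays. Their log2 differences were 0.11 with GC-1 and 0.16 with T3 for CPQ, 0.30 and 0.43 for ITIH1, 0.44 and 0.64 for CES1, 0.22 and 0.31 for ERO1A, and 0.36 and 0.54 for PCK2, in the same order of ligands.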

How the data were processed

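The authors made the deposited log2 signals with RMA, as the submitters' processing notes say without a version. No source names the log base, and 2 was inferred from values between 3.15 and 14.5. The signals were used unchanged once 62 array controls had been left out. Detection calls were not used, so low signals were not read as absence. Groups and replicate numbers come from the sample titles, and the labels do not say that replicates were separate cultures, so p-values measure the spread between these arrays, which may be technical. The number of arrays limits the precision.

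Probe sets were named from the platform annotation where it gave 1 symbol (19064 of 22215; 1043 had several and 2108 none). Entrez identifiers matched the reference table for 19052, with 0 symbols updated.

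A single linear model with 3 group means was fitted to all 9 arrays in limma 3.58.1 (R 4.3.3), with moderated two-sided tests from eBayes. Benjamini-Hochberg adjustment ran over the whole table of 22215 probe sets. The fit was tested on simulated data. The members, lists, naming rule and alternatives were all chosen with earlier results of these data known. Every member is named. Of each list, up to 4 called genes are named, ranked by p in the mean of both ligands, with C4A, C4B, SERPING1, CFI and C5 whatever they showed, and the 5 genes most like C3. C8G, CXCL10, CCL20, CFD, CFP, THRA, THRB and the uncalled cell markers were named after their values were seen. Alternatives were quantile normalization, trend and robust eBayes, array weights, a filter on dim probe sets, fits of the compared groups alone, the interquartile range as a covariate, a replicate block, leaving out arrays, and averaging the probe sets of a gene. No shared deviation by replicate number was seen: 0 of 9 same-numbered pairs had deviations correlated over 0.1 (-0.26 to 0.08). This does not show how the cultures were run. Among 18 pairs with other numbers from other groups, 2 were over 0.1 (-0.30 to 0.29), and the reason was not tested.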

Additional observations from a re-analysis of the deposited data

How the results depend on the processing

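The count of called member probe sets was 2 with GC-1 and 8 with T3. With GC-1 it was 5 with the trend and robust options, 4 without probe sets under the median level (8 members tested), 1 with only the arrays of the groups compared, 1 with the array interquartile range as a covariate, 1 without T3 replicates 1 and 2, and 1 to 3 when each array was left out in turn (1 without any vehicle array, T3 replicate 1 or 2, or GC-1 replicate 1 or 2). With T3 it was 4 with that covariate, 3 without T3 replicates 1 and 2, and 3 to 8 when each array was left out in turn (3 without vehicle replicate 1 and 4 without vehicle replicate 3). The fit with the replicate number as a block gave 1 with GC-1 and 7 with T3, though same-numbered arrays did not deviate together. Over all probe sets, the GC-1 count of 622 ranged from 274 to 1435 and the T3 count of 1222 from 661 to 2084. GC-1 minus T3 had 0 member calls under every setting run, and 0 to 338 over all probe sets (338 without T3 replicate 3). The causes were not tested.

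No called member reversed direction. Members that were not called and lay near 0 did. With quantile normalization, MASP1 206449_s_at stood at 0.023 with T3, and GC-1 minus T3 was -0.007 there, -0.031 in C1R, 0.043 in C4BPA and 0.009 in C4BPB. With the covariate, MASP1 206449_s_at stood at -0.043 with GC-1 and 0.189 with T3 and 210680_s_at at -0.008 with GC-1, and GC-1 minus T3 was -0.137 in 210680_s_at, -0.232 in 206449_s_at, 0.042 in MASP2 216968_at and -0.092 in C1R. Without T3 replicates 1 and 2, T3 minus vehicle was 0.173 in MASP1 206449_s_at and 0.005 in MASP2 207041_at, and GC-1 minus T3 was -0.058 in 210680_s_at, -0.138 in 206449_s_at, 0.013 in MASP2 216968_at and -0.048 in C1R. With the mean of its probe sets, MASP1 had a GC-1 minus T3 difference of -0.006. Leaving out each array in turn, GC-1 minus vehicle ran from -0.032 to 0.102 in CFB 211920_at, -0.008 to 0.069 in MASP1 206449_s_at, -0.029 to 0.097 in MASP1 210680_s_at and -0.045 to 0.073 in MASP2 207041_at. T3 minus vehicle ran from -0.011 to 0.175 in C1R, -0.096 to 0.073 in MASP1 206449_s_at and -0.093 to 0.029 in MASP2 207041_at. GC-1 minus T3 ran from -0.024 to 0.050 in C1R, -0.038 to 0.131 in MASP1 206449_s_at, -0.029 to 0.097 in MASP1 210680_s_at, -0.008 to 0.096 in MASP2 207041_at and -0.002 to 0.192 in MBL2.

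Of the 15 member probe sets, 7 lay under the median level of 7.04. With 3 arrays per group the member standard errors were 0.05 to 0.10 log2 units.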
